A study of Mus musculus with 22 samples.

Results

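Kcnj6, the G protein-gated inwardly rectifying potassium (GIRK) channel subunits that can assemble with it and the GABAB receptor subunits that activate such channels were followed in the hippocampus (HIP) and entorhinal cortex (EC) of Ts66Yah mice. The 7 genes were taken by name from the 55385 genes of the count table. They were chosen with earlier results of these data known, and all are reported whatever their values. Kcnj6 and Kcnj15 lie in the triplicated segment, and Kcnj3, Kcnj5, Kcnj9, Gabbr1 and Gabbr2 do not. All 7 were found in the table. RNA sequencing covered 11 male mice, 5 wt littermates and 6 Ts66Yah, with one HIP and one EC library from each, or 22 libraries. The mice were adults of 5 to 6 months on a mixed B6C3B background. Ts66Yah mice carry a freely segregating minichromosome, made from that of the Ts65Dn line by removing its centromeric Mmu17 part with CRISPR/Cas9. It holds the distal end of Mmu16, from Mir155 onwards, so that these genes are present in 3 copies against 2 in wt. The line goes back to one mosaic founder, every cell of the body can carry the extra chromosome, and no group carries an extra copy of a single gene alone.

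GIRK channels are tetramers that open when G protein beta-gamma dimers, released by receptors coupled to Gi/o proteins, bind to them, and the potassium current then hyperpolarises the neuron. Kcnj6 (GIRK2) forms channels alone or with Kcnj3 (GIRK1) or Kcnj9 (GIRK3), and Kcnj5 (GIRK4) is best known from the heart atrium, where it pairs with Kcnj3. The GABAB receptor is an obligate dimer of Gabbr1, which binds GABA, and Gabbr2, which couples to the G protein, and GIRK channels are among its main postsynaptic effectors. Kcnj15 is an inward rectifier of another subfamily, not gated by G proteins.

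The feature that these potassium channels share is the selectivity filter, a Gly-Tyr-Gly stretch that lines the pore. The coding sequence around it is printed below for the GIRK subunits and Kcnj15, to show how the genes differ across this common feature, since similar genes could share short reads. Each run has 60 bases of 1 coding exon, 5′ to 3′ on the coding strand, and the capitals mark the codons of Gly-Tyr-Gly (GENCODE M21 transcripts, GRCm38). In order, the runs lie at chr16:94832756-94832815 (minus strand), chr2:55437603-55437662 (plus), chr1:172326163-172326222 (minus), chr9:32322538-32322597 (minus) and chr16:95295956-95296015 (plus).
Kcnj6: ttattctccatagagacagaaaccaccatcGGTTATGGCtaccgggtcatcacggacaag
Kcnj3: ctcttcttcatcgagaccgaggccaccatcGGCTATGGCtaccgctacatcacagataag
Kcnj9: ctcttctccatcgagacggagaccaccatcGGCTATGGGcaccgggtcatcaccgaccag
Kcnj5: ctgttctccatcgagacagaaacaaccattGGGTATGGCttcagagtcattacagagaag
Kcnj15: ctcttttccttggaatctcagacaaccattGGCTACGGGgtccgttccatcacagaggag

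Of these 60 bases, Kcnj9 had 50 in common with Kcnj6, Kcnj5 had 48, Kcnj3 had 47 and Kcnj15 had 37. Over the aligned coding sequences, the GIRK subunits were 67.2% to 72.5% identical to each other, and Kcnj15 was 59.5% to 60.9% identical to them. The longest identical run in the coding sequence between Kcnj6 and any of the other 4 channels was 22 bases, with Kcnj5, whereas the reads were 50 bases long. No window of 50 bases was shared between any of the 7 genes, so that an error-free read from one of them could not match another. Gabbr1 and Gabbr2 were 62.1% identical. On the same strand, 6 of the 7 genes shared no window of 50 bases with any other transcript, and Kcnj15 shared 52 of its 6666 windows, with 324 other genes. On the other strand, 327 windows of Kcnj15 (4.91%) were also in transcripts of 325 genes. How many of its few counts came from such windows cannot be told.

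The libraries held 25.9 to 50.1 M counts, and levels are given as CPM, the count scaled to the size of its library with TMM factors over all 22 libraries. The labelled regions differed in their markers: the summed CPM of 4 dentate granule neuron markers was 241 to 266 in wt HIP and 12.6 to 16.6 in wt EC, and that of 6 cortical layer markers was 139 to 152 and 387 to 554. Oligodendrocyte markers were also lower in EC (1280 to 3080, against 6350 to 9090 in wt HIP), and choroid plexus markers in HIP ranged from 110 to 3280 among the wt mice and from 767 to 2810 among the Ts66Yah mice. None of the genes in the marker lists passed the test between genotypes in either region. In tissue RNA, fewer cells of a type and less RNA per cell cannot be told apart.

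Kcnj6 alone among the 7 genes passed the test between genotypes, and it rose in both regions. Kcnj6 (ENSMUSG00000043301) lies on the minus strand of chr16:94748636-94997701 (GRCm38). In HIP, the wt libraries 1 to 5 had 50.7, 43.2, 39.9, 47.4 and 44.0 CPM, with a mean of 45.0 ± 4.15 (SD, n = 5). The Ts66Yah libraries had from 59.6 to 87.6 CPM, with a median of 76.9 and a mean of 75.9 ± 10.3 (SD, n = 6). Every Ts66Yah library was thus above every wt library. The log2 fold change was 0.76 (SE 0.09, 95% interval 0.56 to 0.95), or 1.69-fold, and its p was 0.000543 in the quasi-likelihood test of edgeR, adjusted by Benjamini-Hochberg. Of all 18452 genes tested in HIP, 0.591% passed the threshold of 0.05 and 0.439% were higher in Ts66Yah, and of the 6 of the 7 genes that were tested, Kcnj6 alone did. Among genes that averaged 1 CPM or more, 2.05% had groups that did not overlap, and 1.16% were higher in Ts66Yah without overlap.

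In EC, Kcnj6 was present at a lower level and differed by a similar factor. The wt libraries 1 to 5 had 27.2, 25.8, 24.4, 27.7 and 18.9 CPM, with a mean of 24.8 ± 3.52 (SD, n = 5). The Ts66Yah libraries had from 32.2 to 42.9 CPM, with a median of 40.1 and a mean of 38.6 ± 4.75 (SD, n = 6). Again the groups did not overlap. The log2 fold change was 0.64 (SE 0.11, 95% interval 0.40 to 0.87), or 1.56-fold, with an edgeR adjusted p of 0.0227, in a comparison where 0.283% of 17658 genes passed and 0.272% were higher. Among genes that averaged 1 CPM or more in EC, 1.02% did not overlap, and 0.59% were higher without overlap. This call was near the threshold: leaving out wt 2, wt 3 or Ts66Yah 1, 3, 4 or 6 took the edgeR adjusted p to between 0.0520 and 0.0829, with log2 fold changes of 0.61 to 0.65, and a term for the range of animal numbers, fitted without wt 1, took it to 0.0714, with 0.68. The labels number the mice in a lower range (wt 2 and 3, Ts66Yah 5 and 6), a higher range (wt 4 and 5, Ts66Yah 1 to 4) and wt 1 apart. Within the lower and the higher range, the log2 fold change was 1.0 (edgeR adjusted p = 0.0181) and 0.67 (0.0620) in HIP and 0.57 (0.544) and 0.76 (0.467) in EC.

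**Figure D1:**
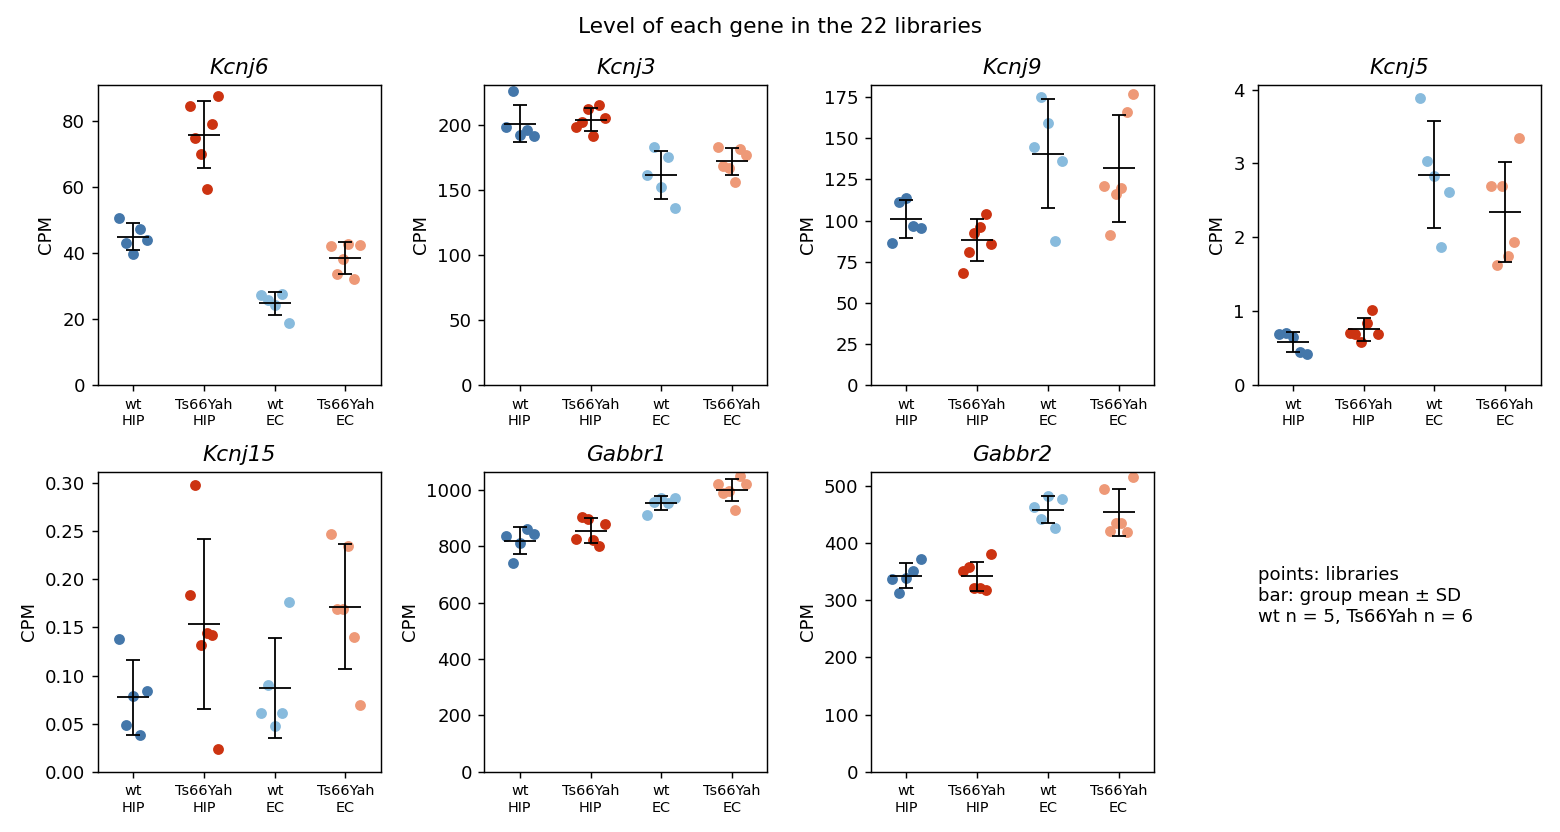
Level of each of the 7 genes in CPM (y axis, from 0, its own scale for each gene) in wt HIP, Ts66Yah HIP, wt EC and Ts66Yah EC (x axis). Points are libraries and bars are the group mean ± SD (wt n = 5, Ts66Yah n = 6). Kcnj6 is the only gene whose wt and Ts66Yah libraries separate, from 59.6 CPM upwards in Ts66Yah HIP against at most 50.7 in wt HIP, and from 32.2 against at most 27.7 in EC.

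The factor was then set against the 1.5-fold that 3 copies against 2 would give. Kcnj6 lay above 1.5-fold by 0.17 on the log2 scale in HIP and by 0.05 in EC, and neither departure passed the edgeR test, with p adjusted over the tested segment genes of 0.328 and 0.880. Before adjustment, these edgeR p-values were 0.0813 and 0.636. By the same test, 5.94% of 101 segment genes departed in HIP and 1.08% of 93 in EC. Kcnj6 ranked 14th of the 101 by log2 fold change in HIP, where the median was 1.5-fold and 57.4% of the segment genes were called. In EC it ranked 28th of 93, with a median of 1.49-fold and 48.4% called. Of the 58 called segment genes in HIP, 4 lay above Kcnj6, and of the 45 called in EC, 14 did. The difference between the regions in the genotype effect of Kcnj6 was -0.12 on the log2 scale (95% interval -0.42 to 0.19) and did not pass.

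The other tested protein-coding genes of the segment with a start within 500 kb of Kcnj6 or Kcnj15 were Vps26c, Dyrk1a, Erg and Ets2. Erg and Ets2 were within that distance of Kcnj15 only, with starts 589 and 704 kb from that of Kcnj6. Vps26c, which encodes a subunit of the retriever complex of endosomal recycling, rose by a log2 fold change of 0.70 (SE 0.05) in HIP and 0.57 (SE 0.06) in EC. Dyrk1a, a protein kinase, rose by 0.54 (SE 0.04) and 0.61 (SE 0.07), and Ets2, a transcription factor, rose by 0.51 (SE 0.05) and 0.46 (SE 0.06). The edgeR adjusted p of these 3 genes was at most 0.00351. Erg, a transcription factor of endothelial cells, had 6.01 ± 0.596 CPM in wt and 6.59 ± 0.479 in Ts66Yah HIP, and 7.61 ± 0.574 and 7.54 ± 1.10 in EC (SD, n = 5 and 6). Its log2 fold changes of 0.14 and -0.01 did not pass the test for a change and lay below 1.5-fold, with edgeR p adjusted over the segment of 0.00673 in HIP and 0.00989 in EC.

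**Figure D2:**
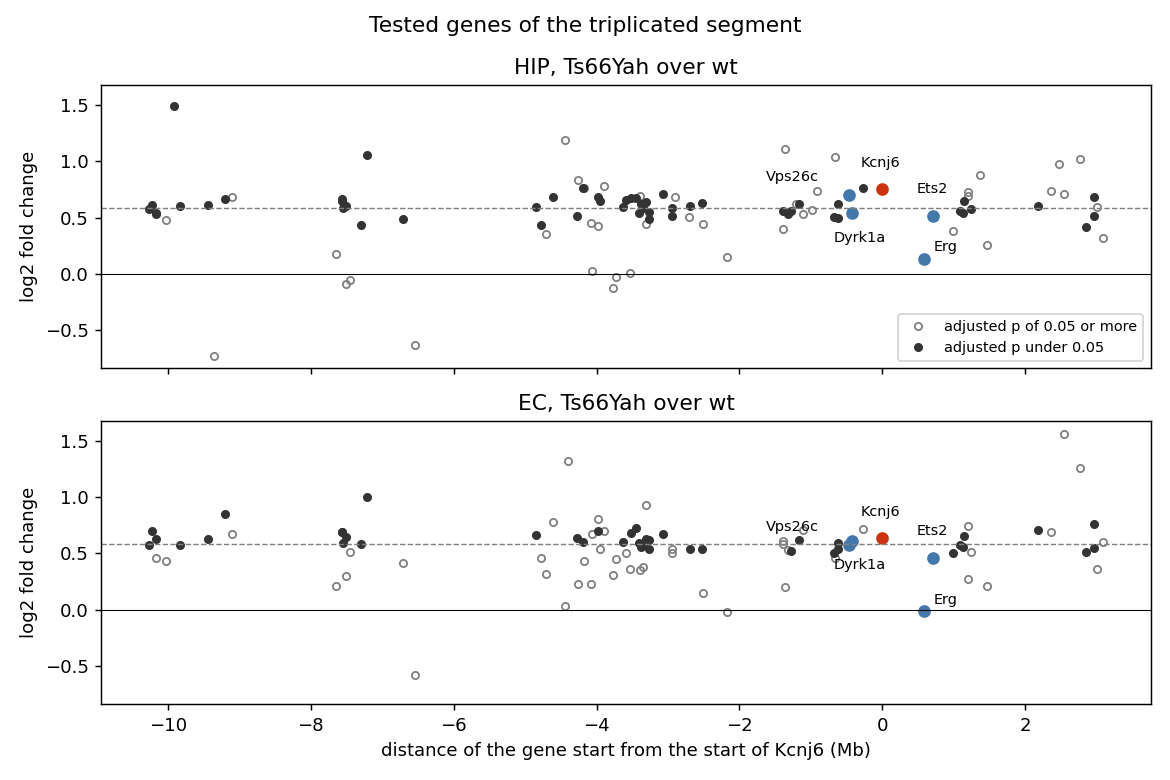
Log2 fold change of Ts66Yah over wt (y axis) for the tested genes of the triplicated segment, against the distance of each gene's start from that of Kcnj6 in Mb (x axis), in HIP (101 genes) and EC (93 genes). Filled points passed the edgeR test and open ones did not, and the dashed line is 1.5-fold. Kcnj6 is red, and the named neighbours of Kcnj6 or Kcnj15 are blue whether called or not. Kcnj6, at 0.76 and 0.64, lies above the dashed line by 0.17 in HIP and 0.05 in EC, and Erg sits near 0.

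Kcnj6 has an antisense partner: Gm41505, on the other strand at chr16:94721894-94753438, overlaps the exons at the 3′ end of Kcnj6, and 4.34% of the 50-base windows of Kcnj6 are also in it. Gm41505 had 6.10 ± 1.49 CPM in wt HIP, 10.3 ± 1.46 in Ts66Yah HIP, 3.02 ± 0.630 in wt EC and 4.94 ± 1.07 in Ts66Yah EC (SD, n = 5, 6, 5 and 6). It thus stood at 12.2% to 13.6% of the level of Kcnj6 in each of the 4 groups. It rose in HIP by 0.76 on the log2 scale (SE 0.15), at an edgeR adjusted p of 0.0304, and in EC its log2 fold change of 0.71 had one of 0.253. The libraries were made with a kit that marks the strand, but the strand setting of the counting is not given in the sources used here. Whether reads of the overlap were counted for Kcnj6, for Gm41505 or for neither cannot be told.

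Kcnj15 (ENSMUSG00000062609, plus strand of chr16:95257558-95300260), the other triplicated gene, was barely detected. Its counts were 4, 2, 4, 1 and 3 in the wt HIP libraries and 2, 3, 2, 2 and 6 in the wt EC libraries. They ranged from 1 to 9 in Ts66Yah HIP and from 2 to 9 in Ts66Yah EC, so the genotypes overlapped in both regions. Summed over the libraries, this came to 14 and 33 counts in HIP and 15 and 35 in EC, in wt and Ts66Yah respectively, and 1 CPM corresponds to 26.5 to 51.0 counts. Kcnj15 did not pass the filter on low counts. Without the filter, its log2 fold change was 0.94 in HIP (edgeR adjusted p = 0.650) and 0.98 in EC (0.743). The unadjusted edgeR p was 0.0954 and 0.0598, and no change was called at counts this low. Gm49643, which overlaps its exons on the other strand, had a mean of at most 0.00486 CPM in any group.

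The partner subunits outside the segment did not pass the test for genotype in either region. Kcnj3 (ENSMUSG00000026824, plus strand of chr2:55435970-55598145) had 198, 226, 192, 196 and 191 CPM in wt HIP and from 191 to 215 in Ts66Yah HIP, with a median of 204. In EC it had 161, 183, 152, 175 and 136 CPM in wt and from 156 to 183 in Ts66Yah, with a median of 172. The genotypes overlapped throughout, and the log2 fold changes were 0.02 (95% interval -0.09 to 0.13, edgeR adjusted p = 0.913) in HIP and 0.09 (-0.07 to 0.25, 0.948) in EC. Both intervals lay below 1.5-fold. A lincRNA gene, Gm26794, overlaps exons of Kcnj3 on the other strand, and 29.26% of the 50-base windows of Kcnj3 are also in it. Gm26794 has no row in the count table, so its own level could not be given. With the strand setting not given, how many reads of Gm26794 stand in the counts of Kcnj3 cannot be told.

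Kcnj9 (ENSMUSG00000038026, minus strand of chr1:172320501-172329318) varied more between mice. In HIP it had 86.4, 111, 114, 96.8 and 95.7 CPM in wt and from 68.3 to 104 in Ts66Yah, with a median of 89.1, so the groups overlapped. The log2 fold change was -0.20 (95% interval -0.41 to 0.02, edgeR adjusted p = 0.464). In EC it had 145, 175, 159, 87.7 and 136 CPM in wt and from 91.1 to 177 in Ts66Yah, with a median of 121, and the log2 fold change was -0.10 (-0.49 to 0.30, 0.981). The EC levels separated by the range of animal numbers: the 4 mice of the lower range had 159 to 177 CPM in EC and the 6 of the higher range had 87.7 to 136, without overlap, while wt 1 had 145. Among genes that averaged 1 CPM or more, 1.2% had ranges that did not overlap in EC and 1.28% in HIP, where those of Kcnj9 did overlap. The labels do not say what the numbers stand for. An antisense gene within Kcnj9, Gm36937, had a mean of at most 0.804 CPM in any group. Among the 12 marker lists, the summed choroid plexus markers alone were also without overlap between these ranges in EC, at 11.9 to 41.4 and 9.39 to 11.4 CPM, and their part in the level of Kcnj9 was not tested.

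Kcnj5 (ENSMUSG00000032034, minus strand of chr9:32314707-32344350) was the rarest of the GIRK subunits. In HIP it had 0.689, 0.705, 0.647, 0.453 and 0.419 CPM in wt and from 0.582 to 1.02 in Ts66Yah, from 12 to 36 counts per library. In EC it had 3.89, 3.04, 2.83, 1.87 and 2.61 CPM in wt and from 1.62 to 3.35 in Ts66Yah, from 48 to 128 counts. The genotypes overlapped in both regions. The log2 fold changes were 0.36 in HIP (95% interval -0.09 to 0.82, edgeR adjusted p = 0.530) and -0.29 in EC (-0.76 to 0.19, 0.936), intervals wide enough to include both no change and, in HIP, 1.5-fold.

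The GABAB receptor subunits had narrow intervals around no change. Gabbr1 (ENSMUSG00000024462, plus strand of chr17:37045966-37075067) had 837, 740, 814, 863 and 845 CPM in wt HIP and from 801 to 905 in Ts66Yah HIP. In EC it had 911, 959, 972, 955 and 971 CPM in wt and from 931 to 1048 in Ts66Yah. Its log2 fold changes were 0.06 (95% interval -0.05 to 0.17, edgeR adjusted p = 0.687) and 0.07 (-0.03 to 0.17, 0.919). Gabbr2 (ENSMUSG00000039809, minus strand of chr4:46662305-46991873) had 338, 313, 339, 352 and 373 CPM in wt HIP and from 318 to 381 in Ts66Yah HIP. In EC it had 463, 443, 483, 427 and 478 CPM in wt and from 419 to 515 in Ts66Yah. Its log2 fold changes were -0.0035 (-0.13 to 0.12, 0.991) and -0.02 (-0.16 to 0.13, 0.993). Both genes overlapped between genotypes in both regions.

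**Figure D3:**
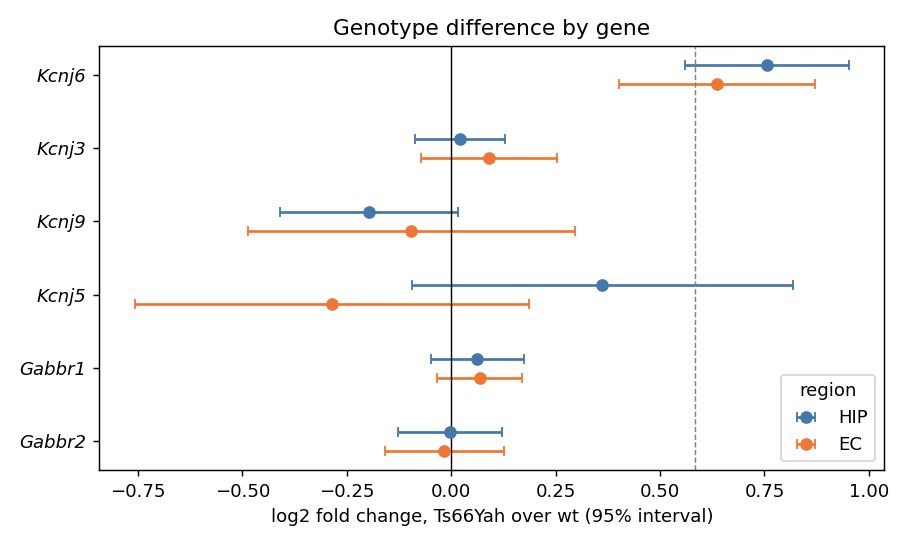
Log2 fold change of Ts66Yah over wt with its 95% interval from edgeR (x axis) for the 6 tested genes (y axis), in HIP (blue) and EC (orange). The solid line is no change and the dashed line 1.5-fold. The intervals of Kcnj6, 0.56 to 0.95 and 0.40 to 0.87, lie above 0 and include 1.5-fold, and those of the other 5 genes include 0.

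The level of Kcnj6 was also set against those of its partners in each library. These proportions compare CPM per kb of exon between genes and are given as a description, without a test, and the antisense overlap of Kcnj3 bears on each that contains it. The ratio of Kcnj6 to Kcnj3 in HIP was 0.175, 0.130, 0.142, 0.165 and 0.157 in wt 1 to 5 and ranged from 0.213 to 0.292 in Ts66Yah, with means of 0.154 ± 0.0178 and 0.254 ± 0.0327 (SD, n = 5 and 6). In EC the ratio was 0.115, 0.0961, 0.110, 0.108 and 0.0953 in wt and from 0.121 to 0.188 in Ts66Yah. In neither region did the groups overlap. The ratio of Kcnj6 to Kcnj9 had means of 0.256 ± 0.0517 and 0.498 ± 0.126 in HIP, without overlap, and of 0.106 ± 0.0412 and 0.172 ± 0.0399 in EC, where wt 4, at 0.177, lay within the Ts66Yah range of 0.109 to 0.207. In EC, Kcnj9 itself separated by the range of animal numbers. The lower range held 2 wt and 2 Ts66Yah mice, and the higher range, with less Kcnj9, held 2 and 4. The part of these ranges in the EC proportions that contain Kcnj9 was not tested.

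Of the summed level per kb of the 4 GIRK subunits, Kcnj6 made up 8.72% ± 1.16 in wt and 14.3% ± 2.03 in Ts66Yah HIP, and 4.86% ± 0.887 and 7.38% ± 1.15 in EC (SD, n = 5 and 6). The groups overlapped in EC and not in HIP. Kcnj3 made up 56.6% and 56.1% in HIP, and Kcnj9 made up 34.5% and 29.4%. The sum itself was 68.0 ± 4.24 and 69.7 ± 3.92 CPM per kb in HIP and 67.6 ± 8.72 and 69.3 ± 8.93 in EC, with overlap in both. The size of the share depends on the length used: with the longest transcript of each gene, Kcnj6 made up 16.2% and 25.2% in HIP and 9.23% and 13.7% in EC. The fold between genotypes of the Kcnj6 to Kcnj3 ratio, 1.65 in HIP and 1.47 in EC, does not depend on it.

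**Figure D4:**
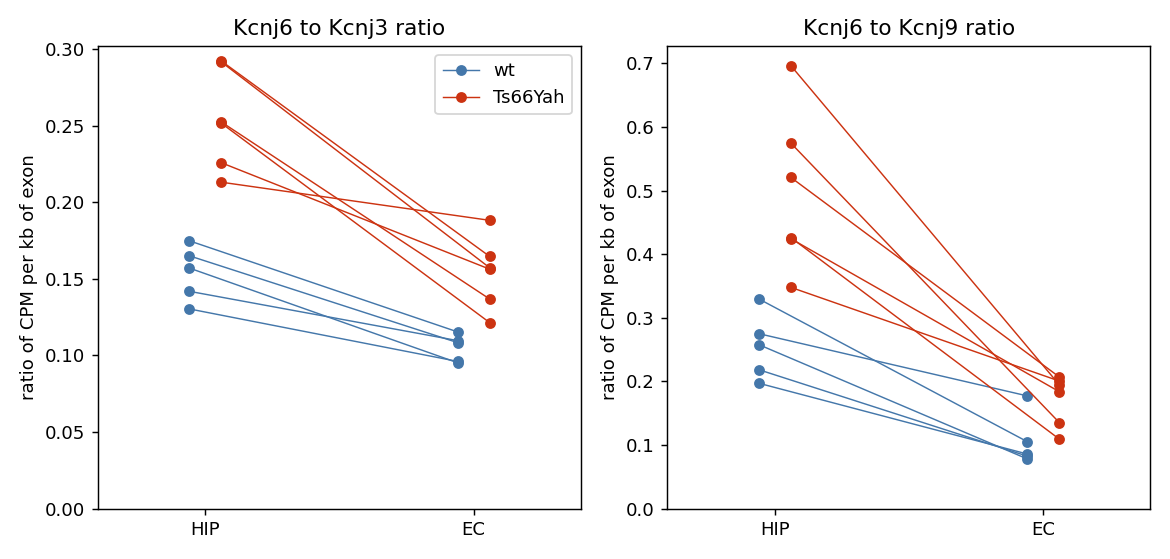
Ratio of Kcnj6 to Kcnj3 (left) and of Kcnj6 to Kcnj9 (right) in CPM per kb of exon (y axes, from 0, each with its own scale) in HIP and EC (x axis). Each line joins the HIP and EC libraries of 1 mouse, wt in blue (n = 5) and Ts66Yah in red (n = 6). The left ratio separates the genotypes in both regions, at 0.130 to 0.175 against 0.213 to 0.292 in HIP, and every mouse has the lower ratio in EC.

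More genes differed between the regions than between the genotypes. The test between regions held no term for the mouse. Among all genes, 47.7% passed the edgeR test between EC and HIP in wt (23.4% higher and 24.3% lower in EC) and 54.0% in Ts66Yah (26.4% and 27.5%), and the 6 tested genes passed in both. Kcnj6 was lower in EC, with log2 fold changes of -0.86 (SE 0.10) in wt and -0.98 (SE 0.10) in Ts66Yah, and the EC to HIP ratio within a mouse ranged from 0.407 to 0.720 over the 11 mice. Kcnj3 was lower too, with -0.31 (SE 0.08) and -0.25 (SE 0.05), and both genes were lower in EC in 11 of 11 mice. The share of all genes that went one way in every mouse is not given here, so such counts of mice are descriptive. The edgeR adjusted p of Kcnj6 was at most 1.98e-05 and that of Kcnj3 at most 0.00659.

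The other 4 tested genes were higher in EC. Kcnj5 had log2 fold changes of 2.27 (SE 0.23) in wt and 1.62 (SE 0.21) in Ts66Yah, Gabbr2 of 0.42 (SE 0.06) and 0.40 (SE 0.06), and Gabbr1 of 0.22 (SE 0.06) and 0.22 (SE 0.05). These 3 were higher in EC in 11 of 11 mice, with edgeR adjusted p of at most 0.00515. Kcnj9 had 0.48 (SE 0.15, edgeR adjusted p = 0.0176) and 0.58 (SE 0.14, 0.00350) and was higher in 10 of 11 mice, wt 4 being the exception at a ratio of 0.906. The wt call of Kcnj9 was lost without wt 1 (0.42, edgeR adjusted p = 0.0788) or wt 5 (0.475, 0.0511). Oligodendrocyte and dentate granule neuron markers moved with region as given above, and their part in these differences was not tested.

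**Figure D5:**
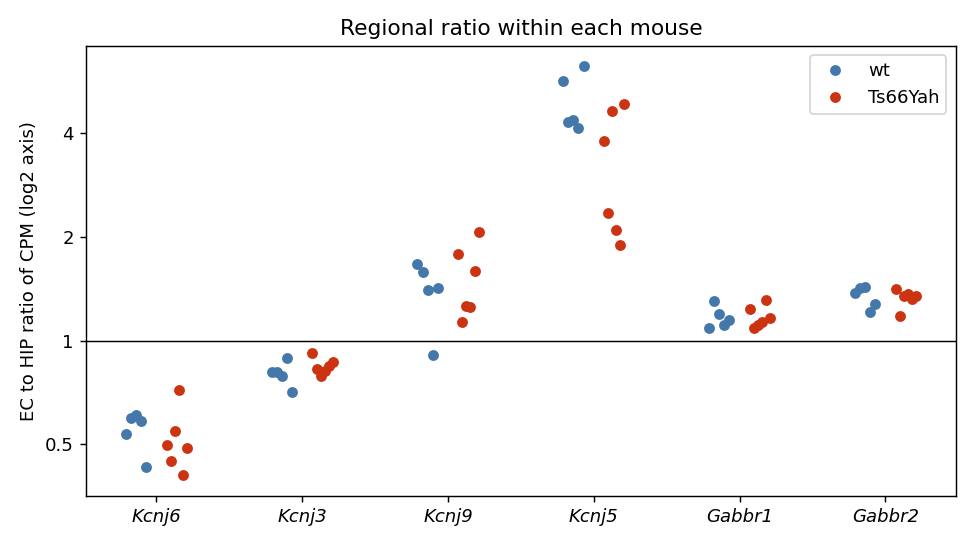
EC to HIP ratio of CPM within each mouse (y axis, log2 scale) for the 6 tested genes (x axis), wt in blue (n = 5) and Ts66Yah in red (n = 6). Points below 1 are lower in EC. Kcnj6 and Kcnj3 lie below 1 in all 11 mice, Kcnj5, Gabbr1 and Gabbr2 above it in all 11, and Kcnj9 above it in 10.

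No genotype effect was shown to differ between the regions. In the interaction test over 19074 genes, 0.0% passed by edgeR, 388 genes had an unadjusted p under 0.05, and DESeq2 also called 0, with 560 at an unadjusted p under 0.05. These fits took the 22 libraries as independent, although HIP and EC of a mouse are paired. With a block for the animal, edgeR also called 0, with 726 genes at an unadjusted p under 0.05. In the edgeR fit without this block, Kcnj5 had the widest difference of the 6 genes. It was -0.64 on the log2 scale (95% interval -1.29 to -0.0031, unadjusted p = 0.0482), which did not pass the adjustment. Its EC to HIP ratio was 4.14 to 6.23 in the wt mice and 1.89 to 4.85 in the Ts66Yah mice, so the genotypes overlapped.

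Ordered by level per kb of exon in wt HIP, Gabbr1 stood at 106 ± 6.20 CPM per kb, Gabbr2 at 51.3 ± 3.27, Kcnj3 at 38.5 ± 2.77, Kcnj9 at 23.5 ± 2.66, Kcnj6 at 5.90 ± 0.543, Kcnj5 at 0.124 ± 0.0290 and Kcnj15 at 0.0122 ± 0.00618 (SD, n = 5). In EC, Kcnj9 (32.8 ± 7.73 in wt) and Kcnj3 (30.9 ± 3.59) did not differ beyond their spread. By its mean, Kcnj6 lay below Kcnj9 and above Kcnj5 in each of the 4 groups. With the longest transcript of each gene, Kcnj6 and Kcnj9 came close in Ts66Yah HIP, at means of 20.9 and 22.8 CPM per kb. Their ratio then ranged from 0.658 to 1.32 among the Ts66Yah HIP libraries, so the order was not the same in every library. Per kb of coding sequence, Kcnj3 (134 CPM per kb) stood above Gabbr2 (122) in wt HIP, so their order depends on the length used.

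The genes whose log2 CPM most resembled that of Kcnj6 were sought among 14378 genes by Pearson's r over the 22 libraries, which share mice and hold both regions and both genotypes. They were Gm41505 (r = 0.978), Son (0.969), Setd7 (0.957), Usp16 (0.951) and Paxbp1 (0.940), of which Setd7 alone lies outside the segment. Outside the segment, Setd7 was followed by Cers6 (0.913), Tsga10 (0.908), Cdh8 (0.897) and Osbpl6 (0.894). With the 4 group means removed, the closest were Ash1l (0.865), Gm41505 (0.862), Hcfc1 (0.858), Plxna4 (0.856) and Plxna2 (0.853). Among the partners, Kcnj3 had an r of 0.766 with Kcnj6 over the 22 libraries and 0.358 with group means removed, and Kcnj9 had -0.675 and -0.206.

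The wider pathway was followed in 76 further genes, in lists of other inward rectifiers, GABAB auxiliary and trafficking proteins, G protein subunits, RGS proteins, which speed the shut-off of G protein signals, and other receptors coupled to Gi/o. Between genotypes, 1 of the 69 tested genes passed in HIP (1.45%, beside 0.591% of all tested genes) and 1 of 71 in EC (1.41%, beside 0.283%), and in both regions it was App, which is itself triplicated and whose protein can bind Gabbr1. App had 2040 ± 92.3 CPM in wt and 3100 ± 103 in Ts66Yah HIP, and 2460 ± 124 and 3670 ± 134 in EC (SD, n = 5 and 6), higher by 0.61 (SE 0.05) and 0.57 (SE 0.05) on the log2 scale. Its edgeR adjusted p was 1.22e-05 and 0.000198. The median log2 fold change of the tested pathway genes was -0.0027 in HIP and -0.01 in EC, beside 1.39e-05 and -0.0045 over all tested genes. Before adjustment, 10 of them in HIP (14.5%) and 7 in EC (9.86%) had a p under 0.05, beside 11.9% and 6.25% of all tested genes.

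None of the G protein subunits passed between genotypes, namely 5 tested genes of the alpha i/o list and 4 of the beta and 11 of the gamma list in each region. Among these, Gnao1, the alpha subunit most abundant here, had log2 fold changes of 0.06 (SE 0.04) in HIP and 0.0016 (SE 0.05) in EC. Gnb1, a beta subunit, had 0.03 (SE 0.04) and -0.01 (SE 0.05), and Gng2, a gamma subunit, had 0.03 (SE 0.05) and -0.02 (SE 0.08). Apart from App, the most abundant genes of the other lists were not called either. Kcnj10, an inward rectifier of astrocytes, had -0.0037 (SE 0.08) and 0.0055 (SE 0.09), and Adora1, an adenosine receptor that couples to Gi/o, had -0.02 (SE 0.05) and 0.07 (SE 0.09). Rgs4, a regulator of Gi/o and Gq signals, had 0.37 (SE 0.16, edgeR adjusted p = 0.393) and 0.35 (SE 0.15, 0.768).

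Between regions the pathway differed widely, as did the genome. In wt, 36 of 70 tested pathway genes were higher and 12 lower in EC, or 68.6% called beside 47.7% of all genes, and in Ts66Yah 37 were higher and 14 lower (72.9% beside 54.0%). All 4 tested G protein beta subunits were higher in EC in both genotypes, with log2 fold changes from 0.30 to 2.47 in wt. Among the alpha subunits, Gnao1 went from 760 ± 26.9 CPM in wt HIP to 883 ± 20.3 in wt EC (SD, n = 5), higher by 0.22 on the log2 scale (SE 0.05) with an adjusted p of 0.00258 by edgeR. Of the 13 RGS proteins, 8 were higher and 3 lower in wt EC, and Rgs4 rose by 1.30 (SE 0.13, edgeR adjusted p = 3.66e-06). Of the 19 tested receptors, 11 were higher and 3 lower in wt EC, and Adora1 was among the lower ones, at -0.59 (SE 0.07, edgeR adjusted p = 2.95e-05).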

How the data were processed

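Libraries of HIP and EC RNA were prepared with a kit that marks the strand; the labels describe selection of poly(A) RNA, and the methods of the study name ribosomal RNA depletion as well as polyadenylated RNA. The authors mapped 50-base single-end reads with Hisat2 to GRCm38 and deposited raw counts per gene from HTSeq-count on Ensembl release 99; per the submitters' processing notes, bcl2fastq 2.17.1.14, DESeq2 and mm10 were also used. Tool versions for mapping and counting, the strand setting and the treatment of reads with several matches are not given in the sources used here. The authors' tables of DESeq2 and FCROS results (fold changes, p-values) were not used. All 22 count columns were mapped by their labels.

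Counts were analysed in R 4.3.3 with edgeR 4.0.16: filterByExpr, TMM factors and the quasi-likelihood test within each region or genotype, p-values being adjusted by Benjamini-Hochberg across every gene tested, with a threshold of 0.05. The interaction was fitted on all 22 libraries. The main region and interaction fits held no term for the mouse, so their SE, intervals and p-values are unpaired. For departure from 1.5-fold, the offsets of segment genes in the Ts66Yah libraries were raised by log 1.5 before the same test. CPM used TMM over 22 libraries, and log2 CPM a prior count of 2. Only the fits between genotypes within each region were tried on simulated counts with known fold changes. The region, interaction and 1.5-fold fits and the intervals were not tried in this way. Symbols, lengths and coordinates were those of GENCODE M21 for GRCm38 (55144 of 55385 identifiers matched); the segment began at Mir155 and reached the end of Mmu16. Alternatives were DESeq2 1.42.0, limma 3.58.1 (voom), RLE factors, other filters, a single fit, blocks by replicate, animal and range of animal numbers, and leaving out each mouse; fits within ranges of animal numbers were added after seeing the data.

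Named genes were all 7 genes, the pathway genes past the threshold between genotypes and the most abundant of each list, segment neighbours with a start within 500 kb of Kcnj6 or Kcnj15, and the 5 genes most like Kcnj6. Gm41505 is also one of those 5. The genes and lists were chosen with earlier results of these data known. HIP and EC libraries of one animal number come from one mouse, and their deviations from the group means correlated at r = 0.207 to 0.454 in the 11 mice; wt and Ts66Yah libraries with one replicate number share only the number. No 2 libraries of a group agreed within sampling noise (chi-square per gene of at least 10.5 in 50 pairs).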

Additional observations from a re-analysis of the deposited data

Results flagged for a closer look

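In 40 groups of 5 or 6 libraries, 3 held a library that stood far from the others by Dixon's criterion, where chance flags about 1 in 20 groups. Kcnj3 was highest in wt HIP 2, at 226 CPM, against 191 to 198 in the other 4 libraries. Gabbr1 was lowest in wt EC 1, at 911 CPM, against 955 to 972. The ratio of Kcnj6 to Kcnj9 was highest in wt EC 4, at 0.177, against 0.0784 to 0.106 in the other 4, and Kcnj9 was at 87.7 CPM in this library.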

How the results depend on the processing

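Kcnj6 was higher in Ts66Yah under each alternative tried. In HIP its log2 fold change was 0.67 to 1.0 over 10 alternatives (adjusted p 4.40e-12 by DESeq2 to 0.0620) and 0.71 to 0.81 without any one mouse, and it lost its call only within the higher range of animal numbers (0.666), where the count of called genes among the 7 went from 1 to 0. The count of called pathway genes went from 1 to 0 within the lower range in HIP and within either range in EC. In EC, Kcnj6 was at 0.57 to 0.76 over 10 alternatives (adjusted p 2.22e-05 by DESeq2 to 0.544) and 0.55 to 0.69 without any one mouse, with the count at 0 to 1. With the block by range of animal numbers, which leaves out wt 1, and within either range, that count was 0, at log2 fold changes of 0.683, 0.570 and 0.756. The wt and Ts66Yah libraries share only a replicate number (r = -0.007 to 0.177); with the replicate block, Kcnj6 had 0.71 (adjusted p = 0.00609) in HIP and 0.61 (0.0142) in EC, and the calls over all genes went from 109 to 61 and from 50 to 39. Pairing HIP and EC by mouse changed no call of the 7 genes. Without any one mouse, the genes called between regions were 5 to 6 in wt and 6 in Ts66Yah.

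Over all genes, HIP calls were 109 by edgeR, 370 by DESeq2 and 68 with the range block, and EC calls were 50, 108 by DESeq2 and 79 in a single fit of 22 libraries. Within the lower and the higher range, with fewer mice, there were 31 and 130 calls in HIP and 10 and 2 in EC. Signs turned only for effects that were not called in any setting. In EC, Kcnj9 was 0.0252 with the range block and 0.0260 and 0.0110 within the ranges, and Gabbr2 was 0.00373 with the block and 0.00693 within the lower range. In HIP, Gabbr2 was 0.000857 with a filter of 1 CPM and 0.0976 within the lower range, where Kcnj3 was -0.000447. Without any one mouse, Gabbr2 ranged from -0.0345 to 0.0280 in HIP and -0.0545 to 0.0112 in EC, the interaction of Kcnj9 from -0.0101 to 0.168, of Gabbr1 from -0.0249 to 0.0475 and of Gabbr2 from -0.0430 to 0.0244, and the departure of Kcnj6 from 1.5-fold in EC from -0.0311 to 0.103. The gain in the share of Kcnj6, 5.58 percentage points in HIP and 2.53 in EC, was 9.07 and 4.50 with the longest transcript and 8.07 and 3.90 with the coding length. Of the 5 genes most like Kcnj6 outside the segment, 3 were shared with Spearman's rho. Counts of 1 to 9 limit what can be said of Kcnj15. The causes of these changes were not tested.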
